A study of Mus musculus with 4 samples.

Results

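The cells described here are CD4-positive T cells found in single-cell RNA libraries of mouse pancreatic islets. They were chosen by their counts of unique molecular identifiers (UMIs, each one captured RNA molecule): a barcode needed at least 1000 UMIs, at most 20% mitochondrial UMIs, at least 2 UMIs of Cd3d, Cd3e and Cd3g together, at least 1 UMI of Cd4, no UMI of Cd8a or Cd8b1, at most 1 UMI of Cd79a and Cd79b together, and insulin (Ins1 and Ins2) below 20% of its UMIs. The rule found 186 barcodes among 5009 that passed the UMI and mitochondrial limits. Of these, 60 of 2912 came from the Malat1-/- library (2.06%, exact 95% binomial interval 1.58 to 2.64%) and 126 of 2097 from the wild-type library (6.01%, 5.03 to 7.11%). Both libraries were made from islets of C57BL/6 mice that were isolated with collagenase, cultured and dissociated, and both carry the treatment label TCDD, a dioxin and ligand of the aryl hydrocarbon receptor. Whether animals or cultured islets received it, and at which dose, is not given in the sources used here. One library is from Malat1-/- mice, which lack Malat1, an abundant nuclear long non-coding RNA, and the other from wild-type mice. The labels name the cells beta cells. The 2 DMSO libraries of the series were not analysed here, so nothing below separates an effect of TCDD. Each genotype is 1 library, the number of animals behind it is not given, and every interval below covers counting error only.

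CD4 T cells recognise peptides on MHC class II molecules through a T cell receptor that signals through the CD3 chains, with CD4 as co-receptor. After recognition they take up costimulatory receptors of the TNF receptor family and shift towards glycolysis, while the transcription factors and homing receptors of naive cells decline. Regulatory CD4 T cells, defined by the transcription factor Foxp3, restrain other lymphocytes. In islets, T cells are a small resident or infiltrating population, best known from autoimmune diabetes.

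The label was checked against markers that the rule did not use. Trbc2, a constant region of the T cell receptor beta chain, was detected in 96.7% of Malat1-/- members and 99.2% of wild-type members, and Trac, the alpha chain constant region, in 78.3% of Malat1-/- and 94.4% of wild-type members. Lat, an adaptor of T cell receptor signalling, was detected in 73.3% of Malat1-/- and 88.9% of wild-type members, against 1.00% of Malat1-/- and 1.06% of wild-type B barcodes. Zbtb7b, the factor that sets the CD4 lineage in the thymus, was seen in only 1 of 60 Malat1-/- and 12 of 126 wild-type members. Among gamma-delta T cell markers, 0 of 4 were seen in Malat1-/- members and 1 of 4, with 1 UMI, in wild-type members. Of the B cell markers, Ms4a1 and Ebf1 were at 0 in both libraries, while Ighm, an immunoglobulin heavy chain, had 30 UMIs in 18 of 60 Malat1-/- members and 131 UMIs in 45 of 126 wild-type members; its part in the results was not tested. All granulocyte and erythroid markers were at 0 in both libraries.

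Most members sat close to the Cd4 limit. Exactly 1 Cd4 UMI was present in 37 Malat1-/- and 57 wild-type members, and 82 Malat1-/- and 105 wild-type T barcodes with no Cd4 and no Cd8 UMI lay just outside. Those barcodes without a co-receptor UMI can hold CD4 T cells whose Cd4 was not captured. The CD3 limit was far from most members: the median CD3 sum was 13 UMIs in Malat1-/- and 15 UMIs in wild-type members, and a sum of exactly 2 occurred in 1 member of each library. CD4 barcodes made up 70.6% of CD4 plus CD8 T barcodes in the Malat1-/- library (60 of 85, interval 59.7 to 79.98%) and 68.1% in the wild-type library (126 of 185, 60.9 to 74.8%), and these intervals overlap. All T barcodes were 5.77% of the Malat1-/- library and 14.1% of the wild-type library. These shares depend on how many islet and other cells each suspension held, and a genotype cannot be told apart from a dissection or a library here.

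Depth and free RNA differed between the members of the libraries. The median depth was 3602.5 UMIs (range 1426 to 32743) in Malat1-/- members and 5385.5 UMIs (1141 to 44543) in wild-type members, and summed over members there were 279418 UMIs in the Malat1-/- and 841567 UMIs in the wild-type library. Insulin UMIs, which T cells do not make, were 1.93% of a Malat1-/- member's UMIs at the median and 0.159% of a wild-type member's. From that share and the composition of near-empty barcodes, free RNA in the suspension was estimated at 3.06% of the UMIs of Malat1-/- members and 0.592% of those of wild-type members. No barcode was shared between the members of both libraries.

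**Figure D1:**
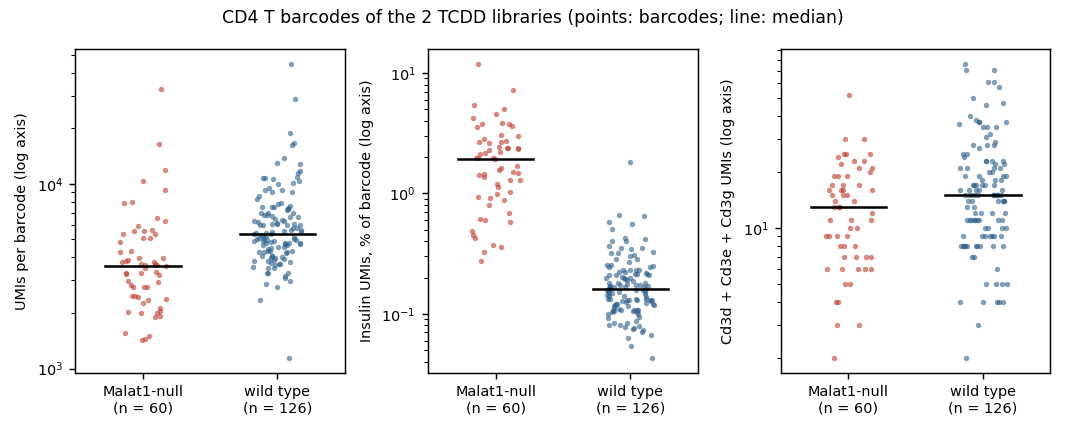
UMIs per barcode, insulin UMIs as percent of a barcode's UMIs, and the sum of Cd3d, Cd3e and Cd3g UMIs for each CD4 T barcode (points; log axes; line, median) in the Malat1-null (n = 60) and wild-type (n = 126) libraries. The median depth was 3602.5 UMIs in the Malat1-null and 5385.5 UMIs in the wild-type library, and the median insulin share 1.93% in the Malat1-null and 0.159% in the wild-type library.

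A few members stood apart. In the Malat1-/- library, 1 member of 32743 UMIs carried 62 UMIs of the replication histone gene Hist1h1b and 91 UMIs of Penk, and 1 member of 10432 UMIs carried 61 UMIs of Lyz2 and 48 UMIs of Arg1, both genes of macrophages. In the wild-type library, 1 member of 44543 UMIs carried 12354 UMIs of the islet hormone gene Ppy and 6839 UMIs of Pyy, and 1 member of 28961 UMIs carried 81 UMIs of the epithelial keratin Krt8. Results that rest on such members are given with and without the 3 Malat1-/- and 15 wild-type members that exceeded 15000 UMIs or held at least 2 UMIs of macrophage, endothelial, mesenchymal, ductal or acinar markers, using only markers below 100 CPM in the free RNA of both libraries. More abundant markers were left out of this definition: counting all 5 acinar markers, 5 Malat1-/- and 85 wild-type members had at least 2 UMIs, and of the PP cell hormones Ppy and Pyy 3 Malat1-/- and 7 wild-type members did. The macrophage markers summed to 85 UMIs in Malat1-/- members, of which 98.8% came from 1 barcode, and to 14 UMIs in wild-type members. Of the 15 wild-type members left out, 12 held such markers. Among the endothelial markers Cdh5, Kdr, Plvap and Flt1 were at 0 in both libraries. Only Pecam1 was seen, in 36 of 126 wild-type members, 9 of them with at least 2 UMIs. Whether members flagged by Pecam1 alone are mixed barcodes was not tested, so the stand-out members are not all shown to be mixed.

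In both libraries, costimulatory receptors of the TNF receptor family, Ramp3 and Hif1a were detected in many members, and the cytokine receptor Il7r in few. Foxp3 was detected in a minority. Of genes linked to helper lineages, some were at 0 and others were detected in up to 61.9% of the members of a library. Tnfrsf9, which encodes the costimulatory receptor 4-1BB, had at least 1 UMI in 65.0% of Malat1-/- members (39 of 60, 51.6 to 76.9%) and 65.9% of wild-type members (83 of 126, 56.9 to 74.1%). In B barcodes, whose median depths were 5237 UMIs in the Malat1-/- and 7444 UMIs in the wild-type library, the share was 0.669% in the Malat1-/- and 2.65% in the wild-type library. Tnfrsf4, encoding the costimulatory receptor OX40, was detected in 45.0% of Malat1-/- and 45.2% of wild-type members, against 0 of 299 Malat1-/- and 2 of 189 wild-type B barcodes. Tnfrsf18, encoding GITR, was detected in 68.3% of Malat1-/- and 72.2% of wild-type members. The intervals of the libraries overlap for all 3 receptors.

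Ramp3, a membrane protein that partners G protein-coupled receptors, had a UMI in 71.7% of Malat1-/- and 68.3% of wild-type members. Hif1a, the transcription factor of the hypoxia response, had one in 91.7% of Malat1-/- and 89.7% of wild-type members. Izumo1r and Nt5e encode the folate receptor 4 and CD73, surface proteins found together on anergic and regulatory CD4 T cells. Izumo1r was detected in 55.0% of Malat1-/- and 45.2% of wild-type members, and Nt5e in 50% of either. Of the inhibitory receptors, Ctla4 was detected in 53.3% of Malat1-/- and 58.7% of wild-type members, Pdcd1 in 25% of Malat1-/- and 31.0% of wild-type members, and Lag3 in 31.7% of Malat1-/- and 27.0% of wild-type members.

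Genes of naive and recirculating T cells were less uniform. Il7r, the receptor for the survival cytokine IL-7, was detected in 16.7% of Malat1-/- and 14.3% of wild-type members. Tcf7, a transcription factor of naive and memory T cells, was detected in 46.7% of Malat1-/- members (33.7 to 60%) and 80.2% of wild-type members (72.1 to 86.7%). With each barcode thinned to 1000 UMIs the Tcf7 share was 16.7% of Malat1-/- (8.29 to 28.5%) and 31.7% of wild-type members (23.7 to 40.6%), and these intervals overlap. Klf2, which drives expression of homing receptors, was detected in 20.0% of Malat1-/- and 32.5% of wild-type members, or 13.3% of Malat1-/- and 16.7% of wild-type members after thinning.

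Genes linked to helper lineages ranged widely in detection. Tbx21 (Th1), Il17a (Th17) and Il13 (Th2) had no UMI in any member of either library, which allows a share of up to 5% of the Malat1-/- and 2.38% of the wild-type members with a UMI. Cxcr3, a chemokine receptor of Th1 and other T cells, was detected in 23.3% of Malat1-/- and 32.5% of wild-type members, and in 16.1% of Malat1-/- and 14.8% of wild-type B barcodes. Rora, a nuclear receptor of Th17 and other T cells, was detected in 45% of Malat1-/- and 55.6% of wild-type members. Tox2, a factor of follicular helper and exhausted T cells, was detected in 30% of Malat1-/- and 41.3% of wild-type members. Gata3, a factor of Th2 and many other T cells, was detected in 25% of Malat1-/- and 23.8% of wild-type members. Ifng, the Th1 cytokine, was detected in 6.67% of Malat1-/- and 12.7% of wild-type members, and the follicular helper cytokine Il21 in 3.33% of Malat1-/- and 3.97% of wild-type members. The follicular homing receptor Cxcr5 was detected in 5% of Malat1-/- (1.04 to 13.9%) and 19.0% of wild-type members (12.6 to 27.0%). B cells are known to make Cxcr5 too, and 17.5% of wild-type B barcodes had a UMI. Maf, a factor of several effector and regulatory subsets, was detected in 41.7% of Malat1-/- (29.1 to 55.1%) and 61.9% of wild-type members (52.8 to 70.4%), or 15.0% of Malat1-/- and 21.4% of wild-type members at 1000 UMIs. Cxcr6, a receptor of tissue-resident T cells, went the other way, with 21.7% of Malat1-/- (12.1 to 34.2%) and 8.73% of wild-type members (4.44 to 15.1%), or 8.33% of Malat1-/- and 3.97% of wild-type members after thinning.

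**Figure D2:**
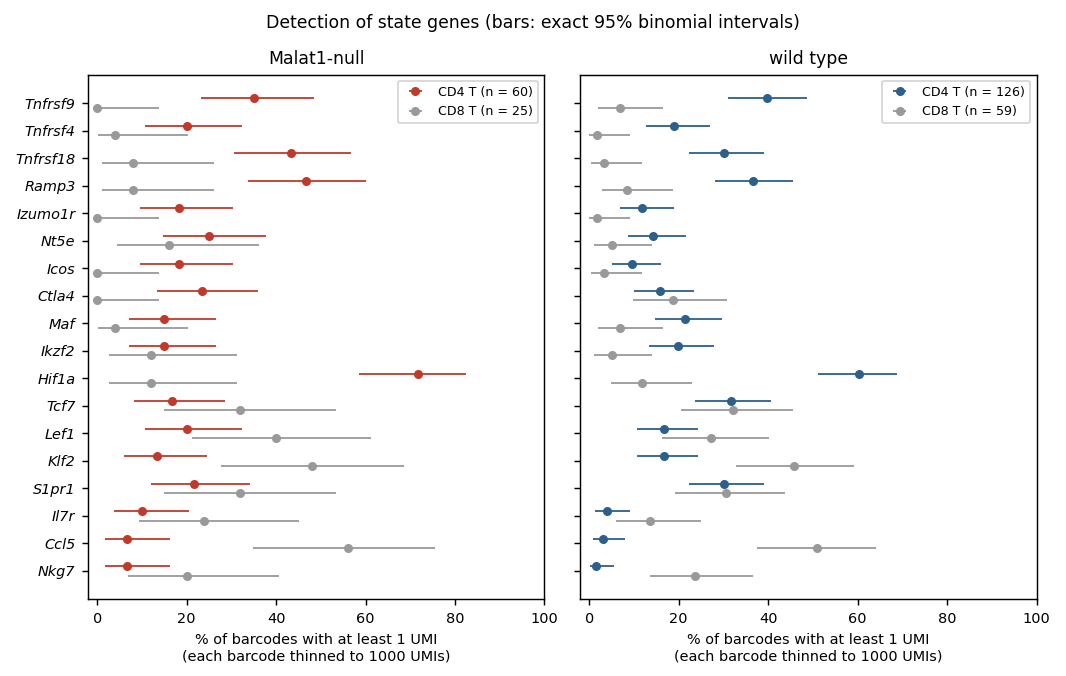
Percent of barcodes with at least 1 UMI of each gene after thinning every barcode to 1000 UMIs, in CD4 and CD8 T barcodes of the Malat1-null (left) and wild-type (right) libraries; lines are exact 95% binomial intervals. Hif1a was at 71.7% of CD4 and 12.0% of CD8 barcodes in the Malat1-null library and at 60.3% of CD4 and 11.9% of CD8 barcodes in the wild-type library, and Ccl5 ran the opposite way.

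CD4 and CD8 T barcodes of one suspension share its handling and free RNA, so they were compared within each library. CD4 barcodes were higher in TNF receptor family genes, Ramp3, Hif1a and glycolytic genes, and CD8 barcodes were higher in the chemokine Ccl5, in cytotoxic genes and in Klf2. Of 1447 genes measured (at least 100 CPM, UMI counts scaled to a common total after TMM normalization, in some class and at least 20 UMIs per library), 55 were 2-fold or more higher in CD4 barcodes in both libraries with intervals beyond equality (3.8% of genes measured) and 25 were lower (1.73%). Without the stand-out barcodes, 49 of the 55 and 25 of the 25 were counted again. The CD8 class held 25 Malat1-/- and 59 wild-type barcodes, and 1 Malat1-/- CD8 barcode reached 36379 UMIs.

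The 10 genes with the largest change included costimulatory receptors and surface proteins of other kinds. All of them but Tnfrsf9 were below 100 CPM in CD8 barcodes of both libraries and were measured through CD4 barcodes alone. Tnfrsf9 was below it in CD8 barcodes of the Malat1-/- library. The direction of these genes was thus partly set by the limit on level. Tnfrsf4 was at 503 CPM in CD4 and 7.80 CPM in CD8 barcodes of the Malat1-/- library (140 UMIs and 1 UMI, ratio 64.5, interval 11.4 to 2565). In the wild-type library it was at 248 CPM in CD4 and 13.4 CPM in CD8 barcodes (209 and 5 UMIs, ratio 18.5, 7.79 to 57.5). Tnfrsf9 was at 585 CPM in CD4 and 7.80 CPM in CD8 barcodes of the Malat1-/- library, and at 864 CPM in CD4 and 118 CPM in CD8 barcodes of the wild-type library (ratio 7.30, 5.38 to 10.1). Tnfsf8, encoding the ligand of CD30, was 19.1-fold higher in Malat1-/- and 7.73-fold higher in wild-type CD4 barcodes than in CD8 barcodes of the same library. All of these intervals lay above 1 in both libraries. Izumo1r had a ratio of 23.5 in the Malat1-/- and 6.07 in the wild-type library. The chemokine receptor Cxcr4 had 5.07 in the Malat1-/- and 4.50 in the wild-type library, and the ectoenzyme gene Nt5e had 5.83 in the Malat1-/- and 4.55 in the wild-type library. Tnfrsf18 and Icos, which encodes the costimulatory receptor ICOS, had ratios of 8.52 and 8.60 in the Malat1-/- library and of 2.65 and 2.60 in the wild-type library.

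Ramp3 was at 840 CPM in CD4 and 62.4 CPM in CD8 barcodes of the Malat1-/- library (ratio 13.5, 6.73 to 31.6). In the wild-type library it was at 708 CPM in CD4 and 86.1 CPM in CD8 barcodes (8.23, 5.77 to 12.1). Smco4, a small membrane protein, was 7.95-fold higher in Malat1-/- and 10.1-fold higher in wild-type CD4 barcodes. Eea1, an early endosome tether, and Tiam1, an exchange factor for the GTPase Rac, completed the 10 genes with the largest change in both libraries, at 133 and 115 CPM in Malat1-/- CD4 barcodes against 15.6 CPM each in CD8 barcodes, and at 175 and 162 CPM in wild-type CD4 barcodes against 5.38 and 16.1 CPM in CD8 barcodes.

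The 3 receptor genes on chromosome 4 include a neighbouring pair, Tnfrsf4 (chr4:156013843-156016612) and Tnfrsf18 (chr4:156026164-156028895), both on the plus strand of GRCm38. Sdf4, a calcium-binding protein of the Golgi, ends 232 bases before Tnfrsf4 starts and was itself higher in CD4 barcodes (1534 CPM in CD4 against 187 CPM in CD8 barcodes of the Malat1-/- library, 1264 CPM in CD4 against 344 CPM in CD8 barcodes of the wild-type library); it is named because of this position, after its values were seen. Whether reads of so close a pair were counted to the right gene was not tested.

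Start-site sequences were searched for the letters GCGTG, the core of the element bound by the aryl hydrocarbon receptor and by hypoxia-inducible factors, and for GGG and TTTCC with any 2 bases between them, a form of the element bound by NF-kB, on both strands and with overlapping matches allowed. GCGTG was in 27 of 57 windows (47.4%) of the genes higher in CD4 barcodes, in 3 of 24 windows (12.5%) of the genes lower in CD4 barcodes, and in 32.4% of all 32851 windows. The last share covers 27025 genes, whether measured here or not. Of the genes counted between the genotypes (given below), GCGTG was in 10 of 25 windows (40%) of those higher in Malat1-/- members. It was in 2 of 13 windows (15.4%) of those lower, so the pattern was not particular to the CD4 against CD8 genes. The NF-kB motif was in 1 of the 57 windows and in 1.63% of all windows. A window runs from 250 bases before to 50 bases after a RefSeq gene start of GRCm38.p6, and 42 of the 55 and 18 of the 25 genes had one. The windows of 3 leading genes are shown with the matches, on whichever strand, in capitals: Tnfrsf9 (chr4:150927749-150928048, plus strand, the NF-kB motif), Ramp3 (chr11:6658283-6658582, plus strand, GCGTG) and Tnfsf8 (chr4:63861235-63861534, minus strand, GCGTG).
Tnfrsf9: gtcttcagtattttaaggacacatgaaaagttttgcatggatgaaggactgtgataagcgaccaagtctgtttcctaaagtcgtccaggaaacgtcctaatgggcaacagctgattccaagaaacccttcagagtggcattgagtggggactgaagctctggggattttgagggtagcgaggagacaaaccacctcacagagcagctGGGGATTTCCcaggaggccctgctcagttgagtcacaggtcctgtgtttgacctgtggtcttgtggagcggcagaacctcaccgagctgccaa
Ramp3: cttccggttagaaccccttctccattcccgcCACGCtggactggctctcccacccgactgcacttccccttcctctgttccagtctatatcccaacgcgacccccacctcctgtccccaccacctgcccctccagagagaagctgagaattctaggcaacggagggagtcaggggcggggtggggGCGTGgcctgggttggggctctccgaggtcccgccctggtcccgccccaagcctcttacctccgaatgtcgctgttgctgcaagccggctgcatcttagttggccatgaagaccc
Tnfsf8: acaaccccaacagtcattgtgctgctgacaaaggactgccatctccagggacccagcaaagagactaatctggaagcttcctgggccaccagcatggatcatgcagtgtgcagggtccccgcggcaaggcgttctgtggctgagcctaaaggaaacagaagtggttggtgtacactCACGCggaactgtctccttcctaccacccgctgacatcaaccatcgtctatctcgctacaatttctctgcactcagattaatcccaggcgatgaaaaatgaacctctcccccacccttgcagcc

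Ramp3 held 2 matches, 1 on either strand, and Tnfsf8 and the window shown for Tnfrsf9 held 1 each. The other window of Tnfrsf9 held no match to its motif. A match describes letters in a window and shows no binding.

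Hif1a was at 1358 CPM in CD4 and 234 CPM in CD8 barcodes of the Malat1-/- library (ratio 5.80, 4.00 to 8.72) and at 1193 CPM in CD4 and 288 CPM in CD8 barcodes of the wild-type library (4.15, 3.39 to 5.11). Of 9 glycolytic genes measured, 5 were more than 1.5-fold higher in CD4 barcodes in both libraries and 0 lower, with a median log2 ratio of 1.79 in the Malat1-/- and 0.61 in the wild-type library. Over all 1448 genes at this level, 7.53% were more than 1.5-fold higher in both and 6.49% lower, with a median of 0.23 in the Malat1-/- and -0.02 in the wild-type library. Pkm, which makes pyruvate, was at 1264 CPM in CD4 and 312 CPM in CD8 barcodes of the Malat1-/- library, and at 1469 CPM in CD4 and 683 CPM in CD8 barcodes of the wild-type library. Ldha, which turns pyruvate into lactate, was 3.97-fold higher in Malat1-/- and 1.87-fold higher in wild-type CD4 barcodes. Mif, a cytokine gene induced in hypoxia, was 5.23-fold higher in Malat1-/- and 2.23-fold higher in wild-type CD4 barcodes. Gpi1, a glycolytic gene too, did not follow, with a log2 ratio of 0.13 in the Malat1-/- and -0.35 in the wild-type library.

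Of the activation genes, Tnfrsf4, Tnfrsf9, Tnfrsf18 and Icos were more than 1.5-fold higher in CD4 barcodes in both libraries. Of the regulatory genes, Ikzf2, Tnfrsf18, Tnfrsf4, Izumo1r and Capg were, so the lists overlap. Tnfrsf4, Icos, Ikzf2, Izumo1r and Capg were below 100 CPM in CD8 barcodes of both libraries and were measured through CD4 barcodes alone. Their direction was thus partly set by the limit on level, and no count over either list is given. Ctla4 was at 241 CPM in CD4 and 54.6 CPM in CD8 barcodes of the Malat1-/- library but at 207 CPM in CD4 and 159 CPM in CD8 barcodes of the wild-type library, where the interval of the ratio (0.965 to 1.78) spanned 1. The receptor complex itself gave 0 of 9 measured genes past 1.5-fold in both libraries. Trbc2 was at 2001 CPM in CD4 and 2027 CPM in CD8 barcodes of the Malat1-/- library and at 2596 CPM in CD4 and 2829 CPM in CD8 barcodes of the wild-type library.

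On the lower side, Ccl5 was at 104 CPM in CD4 and 3743 CPM in CD8 barcodes of the Malat1-/- library and at 182 CPM in CD4 and 5771 CPM in CD8 barcodes of the wild-type library. That made it 35.9-fold lower (24.7 to 54.2) in Malat1-/- and 31.7-fold lower (26.9 to 37.7) in wild-type CD4 barcodes, and 1 barcode gave 62.1% of the Malat1-/- and 78.4% of the wild-type CD4 UMIs. The other cytotoxic genes measured were the granule gene Nkg7, the granzyme Gzmk, the killer cell receptor Klrd1 and the lysosomal protease Ctsw. Klrd1 was at 0 CPM in CD4 and 304 CPM in CD8 barcodes of the Malat1-/- library. In the wild-type library it was at 34.5 CPM in CD4 and 430 CPM in CD8 barcodes. Klrd1, Nkg7 and Ctsw reached 100 CPM in CD8 barcodes alone, so their direction was partly set by the limit on level. For this reason no count or median over that list is given. Eomes, a factor of cytotoxic and memory cells, was at 17.96 CPM in CD4 and 133 CPM in CD8 barcodes of the Malat1-/- library, with all CD4 UMIs from 1 barcode, and at 24.95 CPM in CD4 and 245 CPM in CD8 barcodes of the wild-type library.

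Klf2 was 7.06-fold lower (4.58 to 11.2) in Malat1-/- CD4 than CD8 barcodes, and 4.58-fold lower (3.82 to 5.50) in wild-type ones. Of 9 naive and central memory genes measured, 6 were more than 1.5-fold lower in CD4 barcodes in both libraries, among them Lef1, Tcf7, Klf2, S1pr1 and Il7r. Il7r was below 100 CPM in CD4 barcodes of both libraries and was measured through CD8 barcodes alone. The count therefore follows in part from that limit. Lef1, a partner of Tcf7, was at 144 CPM in CD4 and 382 CPM in CD8 barcodes of the Malat1-/- library, and at 159 CPM in CD4 and 382 CPM in CD8 barcodes of the wild-type library. Also among the 10 lowest were Plac8, Fam241a, the kinase gene Txk and the interferon-induced Epsti1. Each of these, and Eomes, reached 100 CPM in CD8 barcodes alone, so their direction too was partly set by the limit on level. Cytosolic ribosomal protein genes ran the same way, with 29 of 77 more than 1.5-fold lower in CD4 barcodes in both libraries and a median log2 ratio of -0.52 in the Malat1-/- and -0.62 in the wild-type library.

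T barcodes with no co-receptor UMI lay between CD4 and CD8 barcodes for 49 of the 55 CD4-higher genes in the Malat1-/- library and 47 of 55 in the wild-type library. Tnfrsf4, for one, was at 270 CPM in these barcodes in the Malat1-/- and 167 CPM in the wild-type library. For the CD4-lower genes this held for 22 of 25 in the Malat1-/- and 15 of 25 in the wild-type library. All of these genes were chosen for lying 2-fold or more apart between CD4 and CD8 barcodes of the same libraries. A class falling between is largely set by that choice. The share over all genes measured was not computed, so nothing about these barcodes is concluded from the counts.

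**Figure D3:**
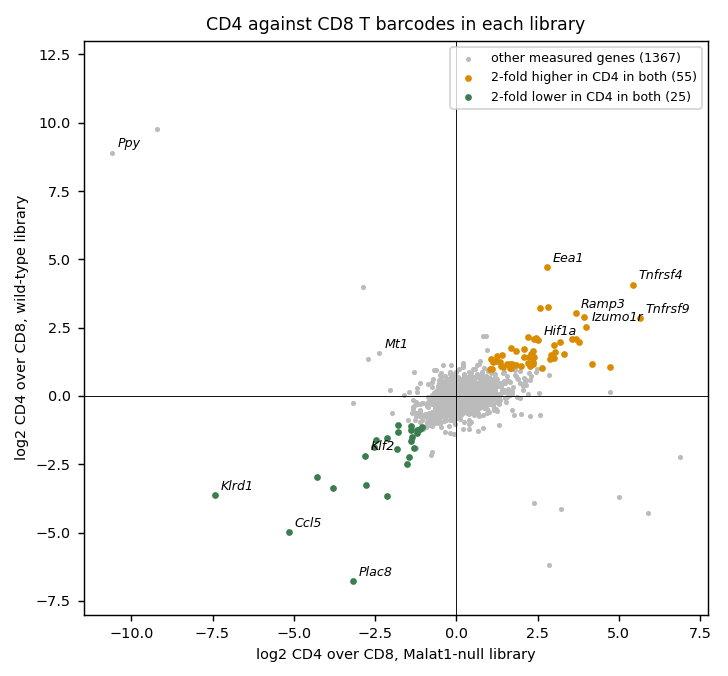
Log2 ratio of CD4 over CD8 T barcodes for each of the measured genes in the Malat1-null (x) and wild-type (y) libraries; orange, 55 genes 2-fold higher in CD4 in both; green, 25 genes 2-fold lower in both. Tnfrsf4, Tnfrsf9 and Ramp3 lie at the upper right and Ccl5, Klrd1 and Plac8 at the lower left, while Ppy, far off the diagonal, rests on 1 barcode in each library.

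Foxp3, the factor that defines regulatory T cells, had at least 1 UMI in 9 of 60 Malat1-/- members (15.0%, 7.10 to 26.6%) and 13 of 126 wild-type members (10.3%, 5.61 to 17%). The intervals overlap, and at 1000 UMIs the share was 5% of Malat1-/- and 1.59% of wild-type members. In B barcodes 1 of 299 in the Malat1-/- and 0 of 189 in the wild-type library had a Foxp3 UMI. A member without a Foxp3 UMI may still be a regulatory cell, since Foxp3 counts reached at most 6 UMIs in Malat1-/- and 5 UMIs in wild-type positives. Foxp3-positive members were deeper, with a median of 5884 UMIs against 3324 UMIs in other members of the Malat1-/- library, and of 6003 UMIs against 5349 UMIs in other members of the wild-type library.

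Of the other genes of the regulatory list, Il2ra, Ikzf2, Tnfrsf18 and Tnfrsf4 were higher in Foxp3-positive members with intervals above 1 in both libraries. The rest did not do so in both, among them Tigit with a ratio of 0.201 (0.00468 to 1.39) in the Malat1-/- and 1.09 (0.119 to 4.80) in the wild-type library, and Nrp1 with 0.831 (0.266 to 2.24) in the Malat1-/- and 1.77 (0.822 to 3.47) in the wild-type library. Gpr83 had no UMI in either library and Itgae none in wild-type members, so neither could meet this rule. The share over all genes was not computed for this split, so no count over the list is given. Levels here are CPM of total UMIs. Il2ra, the high-affinity IL-2 receptor chain, was at 104 CPM in Foxp3-positive members and at 0 in the other members of the Malat1-/- library (9 and 0 UMIs). In the wild-type library it was at 259 CPM in Foxp3-positive and 8.14 CPM in other members (ratio 31.8, 12.9 to 94.1). Ikzf2, encoding Helios, was at 564 CPM in Foxp3-positive and 135 CPM in other Malat1-/- members (4.18, 2.55 to 7), and at 537 CPM in Foxp3-positive and 212 CPM in other wild-type members (2.54, 1.83 to 3.46). Tnfrsf18 had a ratio of 2.75 in the Malat1-/- and 2.16 in the wild-type library, Tnfrsf4 of 3.53 in the Malat1-/- and 2.59 in the wild-type library, and Tnfrsf9 of 2.41 in the Malat1-/- and 3.46 in the wild-type library, all with intervals above 1. For Ctla4 the interval spanned 1 in both, with a ratio of 0.814 (0.446 to 1.42) in the Malat1-/- and 0.917 (0.545 to 1.47) in the wild-type library.

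Other genes were lower beside Foxp3. Maf was at 34.5 CPM in Foxp3-positive and 286 CPM in other Malat1-/- members, 8.27-fold lower, and at 144 CPM in Foxp3-positive and 373 CPM in other wild-type members, 2.60-fold lower. Tcf7 was 7.22-fold lower in Malat1-/- and 2.31-fold lower in wild-type Foxp3-positive members. Ccl5 and Gzmk had no UMI in the 9 Malat1-/- and 13 wild-type positives, while 6 of 51 other Malat1-/- and 21 of 113 other wild-type members had one of them. With so few positives, this absence does not show that either gene was lower in them. For Ccl5, 1 barcode gave 62.1% of the Malat1-/- and 78.4% of the wild-type UMIs. Izumo1r differed in direction, with a ratio of 0.353 (0.134 to 0.789) in the Malat1-/- and 1.54 (0.975 to 2.35) in the wild-type library. Of the 9 Malat1-/- positives, 2 exceeded 15000 UMIs; without them the log2 ratio was 1.98 instead of 2.05 for Ikzf2, 2.45 instead of 1.81 for Tnfrsf4 and -0.22 instead of -1.42 for Izumo1r. With all members thinned to 1000 UMIs it was 0.58 for Ikzf2 in the Malat1-/- and 0.52 for Tnfrsf18 in the wild-type library.

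The TNF receptor family genes were not limited to Foxp3-positive members. Tnfrsf4 or Tnfrsf9 had a UMI in 9 of 9 Foxp3-positive and 40 of 51 other Malat1-/- members (78.4%), and in 13 of 13 Foxp3-positive and 80 of 113 other wild-type members (70.8%). Members with a Klf2 UMI held Tnfrsf4 or Tnfrsf9 in 8 of 12 cases against 41 of 48 members without Klf2 in the Malat1-/- library, and in 22 of 41 against 71 of 85 members without Klf2 in the wild-type library.

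**Figure D4:**
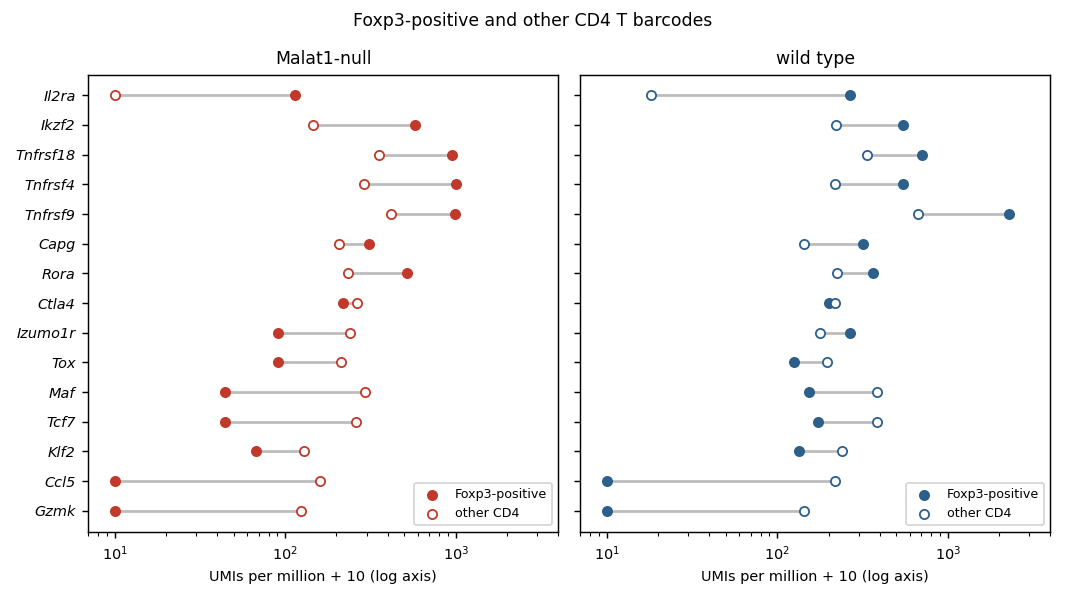
CPM of total UMIs plus 10 (log axis) of each gene summed over Foxp3-positive (filled; 9 Malat1-null and 13 wild-type barcodes) and other CD4 T barcodes (open; 51 Malat1-null and 113 wild-type barcodes), in the Malat1-null (left) and wild-type (right) libraries. Il2ra, Ikzf2 and the 3 TNF receptor family genes lie further right in Foxp3-positive barcodes in both panels, and Maf, Tcf7, Ccl5 and Gzmk further left.

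The genotypes were then set side by side within the CD4 T barcodes. The targeted RNA followed the labels: Malat1 had 0 UMIs in the 60 Malat1-/- members and 27575 UMIs in the wild-type members, with at least 1 UMI in all 126, at 32766 CPM. Against a floor of 3 UMIs over the Malat1-/- members, Malat1 was at least 3041-fold lower in them. Other differences were small in number. Of 1670 genes measured (at least 100 CPM in a library and 50 UMIs over both), 35 were 2-fold or more higher in Malat1-/- members with an interval beyond 1.5-fold (2.1%), and 15 were lower (0.898%). These compare 2 libraries, and no replicate says how far 2 libraries of one genotype would differ.

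Single barcodes carried many of these genes. In 15 of the 35 higher and 4 of the 15 lower genes, 1 barcode held more than 50% of the UMIs of the library in which the gene was higher. Lyz2 (219 CPM in Malat1-/- members, 0 in wild-type members) came wholly from 1 barcode, and Arg1, Hist1h1b, Lgals3, Fabp5, Stmn1, Ebi3 and Penk had at least 71.3% of their Malat1-/- UMIs in 1 barcode each. Ppy and Pyy (Ppy at 50.3 CPM in Malat1-/- and 14717 CPM in wild-type members, Pyy at 28.7 CPM in Malat1-/- and 8135 CPM in wild-type members) had 99.7% and 99.9% of their wild-type UMIs in 1 barcode. Without the stand-out members, 12 genes were higher and 11 lower, of which 11 and 7 were among those counted with all members. The insulin genes and Iapp were higher in Malat1-/- members (Ins2 at 12352 CPM in Malat1-/- and 1246 CPM in wild-type members) beside the higher free RNA there.

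8 of the higher genes, setting aside Ins1, Ins2 and Iapp, were counted with and without the stand-out members. Gpr65, a receptor that senses protons, was at 154 CPM in Malat1-/- and 42.8 CPM in wild-type members (ratio 3.61, 2.26 to 5.79; 4.28 without the stand-out members), in 17 of 60 Malat1-/- and 21 of 126 wild-type barcodes. Lmnb1, encoding lamin B1 of the nuclear envelope, was at 194 CPM in Malat1-/- and 59.4 CPM in wild-type members (3.26, 2.18 to 4.90). Ddx21, a nucleolar RNA helicase, was at 244 CPM in Malat1-/- and 98.6 CPM in wild-type members (2.48, 1.77 to 3.45), and Mphosph6, a factor of ribosomal RNA processing, at 176 CPM in Malat1-/- and 58.2 CPM in wild-type members (3.02, 1.99 to 4.59). Sla, an adaptor that lowers T cell receptor signalling, was at 136 CPM in Malat1-/- and 54.7 CPM in wild-type members (2.50, 1.58 to 3.92). Carnmt1, D16Ertd472e and Cst3 were the others, and Cst3 had 57.0% of its Malat1-/- UMIs in 1 barcode. In other barcodes of the same libraries, 7 of these 8 pointed the same way in T barcodes without a co-receptor UMI, 4 of the 6 with enough UMIs in CD8 barcodes, and 4 of 8 in B barcodes. Beyond 1.5-fold these were 4 of 8 in T barcodes without a co-receptor UMI (6.60% of all genes there), 3 of 6 in CD8 barcodes (5.83%) and 1 of 8 in B barcodes (9.37%).

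The 7 lower genes counted both ways were Malat1, Jun, Ctla2a, Igkc and the digestive enzymes Prss2, Ctrb1 and Cela1. In T barcodes without a co-receptor UMI 6 of these 7 pointed the same way, in CD8 barcodes 6 of 7 and in B barcodes 4 of 7. Beyond 1.5-fold these were 4 of 7 (6.06% of all genes there), 6 of 7 (24.2%) and 4 of 7 (5.57%). In the first and last class those 4 were Malat1 and the digestive enzymes. Jun, an immediate early factor that cell dissociation also induces, was at 35.9 CPM in Malat1-/- members (10 UMIs) and 133 CPM in wild-type members (112 UMIs), 3.71-fold lower (1.94 to 7.94). In T barcodes without a co-receptor UMI Jun was lower in the Malat1-/- library too (ratio 0.679, 0.520 to 0.878). It ran the other way in CD8 barcodes, at 335 CPM in the Malat1-/- and 159 CPM in the wild-type library (ratio 2.11, 1.39 to 3.18). In B barcodes its ratio was 1.12 (0.963 to 1.30). Ctla2a, a protease inhibitor, was at 68.2 CPM in Malat1-/- and 267 CPM in wild-type members. In CD8 barcodes it was lower in the Malat1-/- library too (ratio 0.391, 0.273 to 0.548). But in T barcodes without a co-receptor it was at 689 CPM in the Malat1-/- and 382 CPM in the wild-type library, and B barcodes held 26 UMIs in the Malat1-/- and 0 in the wild-type library. Prss2 was at 7.18 CPM in Malat1-/- and 223 CPM in wild-type members, spread over 2 Malat1-/- and 70 wild-type barcodes, and Igkc, an immunoglobulin light chain, at 97.0 CPM in Malat1-/- and 354 CPM in wild-type members. The 5 acinar markers summed to 107 CPM in Malat1-/- and 895 CPM in wild-type members, and to 2646 CPM in the free RNA of the Malat1-/- and 53037 CPM in that of the wild-type library. Free RNA at its estimated level would give 82.6% of the Igkc UMIs in Malat1-/- and 2.90% in wild-type members. For Prss2 the same estimate would give 297% of the UMIs in Malat1-/- and 39.1% in wild-type members. An estimate scaled by insulin thus exceeded the Prss2 UMIs seen in Malat1-/- members. The part of free RNA in these differences was not tested. The remaining genes among the 12 lowest were Krt8, Clu and the metallothionein Mt2, the first of them with 87.1% of its wild-type UMIs in 1 barcode.

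**Figure D5:**
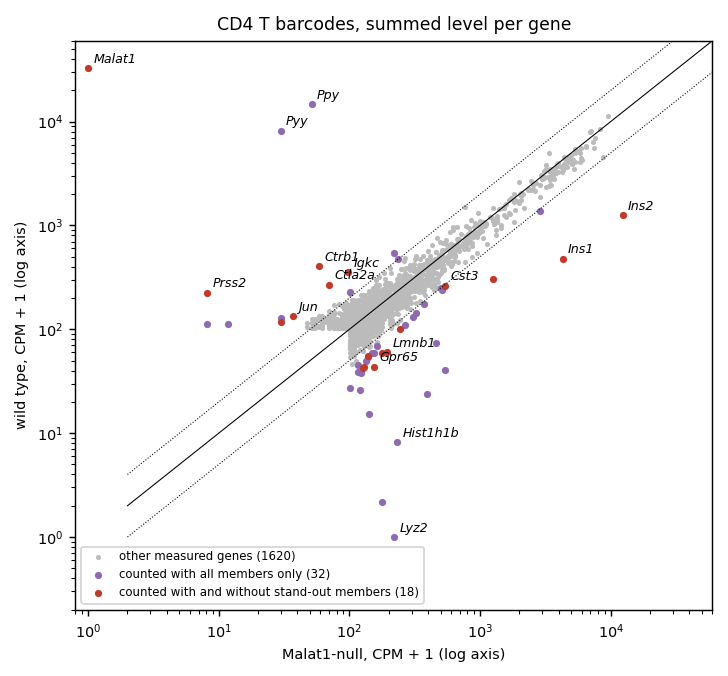
CPM plus 1 of each of 1670 measured genes in CD4 T barcodes of the Malat1-null (x) and wild-type (y) libraries, log axes; dotted lines, 2-fold. Red, 18 genes counted with and without the stand-out members; purple, 32 counted with all members only, among them Ppy, Pyy and Lyz2.

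By gene list, naive and central memory genes were mostly lower in Malat1-/- members. Of 7 naive and central memory genes measured, 4 were more than 1.5-fold lower in Malat1-/- members and 0 higher, with a median log2 ratio of -0.58, or -0.45 without the stand-out members. Over all 1675 genes at that level, 9.97% were more than 1.5-fold higher and 8.18% lower, with a median of 0.10. Tcf7 was at 183 CPM in Malat1-/- and 349 CPM in wild-type members, 1.91-fold lower (1.41 to 2.62), and Klf2 at 101 CPM in Malat1-/- and 216 CPM in wild-type members, 2.15-fold lower (1.44 to 3.33). S1pr1, the receptor by which T cells leave tissue, was at 162 CPM in Malat1-/- and 266 CPM in wild-type members, 1.65-fold lower (1.19 to 2.32). Foxp1, which keeps T cells quiescent, was at 154 CPM in Malat1-/- and 233 CPM in wild-type members, 1.51-fold lower (1.08 to 2.15). Il7r, below that level, ran the other way, at 97.0 CPM in Malat1-/- and 36.8 CPM in wild-type members (2.63, 1.51 to 4.56). Of 13 T cell transcription factors, which include Tcf7, Klf2 and Foxp1, 4 were lower and 0 higher; the other one was Bcl11b, at 122 CPM in Malat1-/- and 214 CPM in wild-type members.

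Activation genes were not of one kind. Of 6 measured, 2 were more than 1.5-fold higher in Malat1-/- members: Tnfrsf4, at 503 CPM in Malat1-/- and 248 CPM in wild-type members (2.02, 1.62 to 2.52; 24.3% of the Malat1-/- UMIs in 1 barcode), and Icos, at 201 CPM in Malat1-/- and 133 CPM in wild-type members (1.51, 1.08 to 2.101). Tnfrsf9 was lower, at 585 CPM in Malat1-/- and 864 CPM in wild-type members (0.678, 0.568 to 0.804). Of 7 regulatory genes, 1 was higher and 0 lower, with Ikzf2 at 269 CPM in Malat1-/- and 252 CPM in wild-type members. The receptor complex list includes genes that the member rule used, so no count over it is given. Of its genes outside the rule, Trac and Trbc1 were more than 1.5-fold lower in Malat1-/- members. Trac was at 471 CPM in Malat1-/- and 760 CPM in wild-type members, and Trbc1 at 614 CPM in Malat1-/- and 966 CPM in wild-type members. Trbc2 was at 2001 CPM in Malat1-/- and 2596 CPM in wild-type members.

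Several proliferation genes, such as Stmn1 and Top2a, reached 100 CPM in the Malat1-/- library alone, so no count over that list is given. Among those that reached it in both, H2afz, a histone variant, had a ratio of 1.69 (1.51 to 1.89), or 0.860 without the stand-out members. Tuba1b, a tubulin, had 2.24 (1.68 to 2.97), or 1.04 without them, and Mcm6, a subunit of the replication helicase, had 1.51 (1.05 to 2.16), or 1.404 without them. Mki67 had a UMI in 2 of 60 Malat1-/- and 5 of 126 wild-type members. Heat shock genes were higher for 3 of 7 and lower for 0, among them Hsp90ab1 at 2863 CPM in Malat1-/- and 1876 CPM in wild-type members (1.53, 1.399 to 1.66). The median log2 ratio of the heat shock list was 0.32, or 0.09 without the stand-out members. Over all genes at that level it was 0.10, or 0.04 without them. Of 9 NF-kB genes, 1 was higher, the inhibitor Nfkbia at 1440 CPM in Malat1-/- and 945 CPM in wild-type members, and 3 were lower, among them the lymphotoxin gene Ltb at 761 CPM in Malat1-/- and 1511 CPM in wild-type members, 1.99-fold lower (1.72 to 2.31). Glycolytic genes gave 0 of 10 higher and 2 lower, with a median of -0.46, and Hif1a was at 1358 CPM in Malat1-/- and 1193 CPM in wild-type members (1.14, 1.01 to 1.28).

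Lists of general cell function held few genes past 1.5-fold. Of 24 splicing and nuclear speckle genes, a compartment in which Malat1 RNA resides, 1 was higher and 2 lower, with a median of -0.07. Pnisr, a speckle protein, was at 93.4 CPM in Malat1-/- and 178 CPM in wild-type members. Of 20 actin cytoskeleton genes 0, and of 11 mitochondrially encoded genes 0, passed 1.5-fold, and 1 of 77 ribosomal protein genes was lower. Of the genes beside Malat1 on its chromosome, 0 reached the level measured. Among them Neat1, the long non-coding RNA next to Malat1, was at 35.9 CPM in Malat1-/- (10 UMIs) and 90.3 CPM in wild-type members (76 UMIs).

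Targets of the aryl hydrocarbon receptor were too sparse for the comparison, with 0 of 12 measured. Tiparp, which is induced by TCDD in many tissues, had 18 UMIs in 12 of 60 Malat1-/- members and 75 UMIs in 44 of 126 wild-type members, with a ratio of 0.725 (0.408 to 1.23). Cyp1a1 had 0 UMIs in Malat1-/- and 7 UMIs in wild-type members, and Ahr itself was seen in 2 Malat1-/- and 6 wild-type members.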

How the data were processed

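Libraries of dissociated islets were made with 10x Genomics 3′ chemistry, version 3. The deposited files are raw UMI counts per gene and barcode for 32285 genes; Cell Ranger 4 is named per the file headers, whereas Cell Ranger 2.1.0 and mm10 are named per the submitters' processing notes. No normalization had been applied. Library totals were 134950186 UMIs (Malat1-/-) and 81872519 UMIs (wild type). Members and gene lists were chosen with earlier results of these data known. Counts were summed over members per library and scaled by TMM factors in edgeR 4.0.16 (R 4.3.3) to CPM. Ratios carry exact conditional 95% intervals and shares exact binomial (Clopper-Pearson) ones. PCR and cell-to-cell spread are not covered. No test was run, since each group is 1 library. Gene positions are from GENCODE M21. UMIs from sequences shared by near-identical genes cannot be told apart.

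Free RNA was taken from barcodes with at most 100 UMIs and scaled by the insulin share. No doublet caller was run. The rule on Cd8, Cd79 and insulin removes some doublets, and alternatives drop deep members or those with markers of other cells. For log2 ratios 0.5 UMIs were added. A log2 ratio of a list covers genes of at least 100 CPM in a library. Named genes were the 12 counted genes with the highest and the 12 with the lowest genotype ratio, leaving out receptor segments and 3 genes with over 50% expected free RNA, the 10 genes each way with the largest CD4 against CD8 change, and members of the lists. Genes counted with and without the stand-out members were singled out after their values were seen. On simulated data for the genotype comparison, 100% of 50 genes made 3-fold higher, 98.0% of 50 made 3-fold lower, 0 of those made 1.5-fold different and 0 of 1455 unchanged genes were counted. The simulated counts held counting error only, around the summed wild-type profile, and the changed genes lay well above the 100 CPM limit. No spread between barcodes was simulated, so these rates do not carry over to genes that rest on single barcodes. The 2 DMSO libraries were not used. Some genes are not reported here.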

Additional observations from a re-analysis of the deposited data

Results flagged for a closer look

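12 genes differed in direction between the libraries in the log2 ratio of CD4 over CD8 T barcodes, with each library's ratio beyond 2-fold and opposite in sign. The difference was not tested.

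Genes of proliferating cells were higher in CD4 barcodes of the Malat1-/- library and lower in those of the wild-type library. In the Malat1-/- library the log2 ratio was 2.38 for Stmn1, 1.31 for Hmgb2, 2.86 for Pclaf, 3.23 for Top2a, 5.89 for Hist1h1b and 4.99 for Hist1h2ap. In the wild-type library it was -3.94 for Stmn1, -1.08 for Hmgb2, -6.19 for Pclaf, -4.15 for Top2a, -4.30 for Hist1h1b and -3.70 for Hist1h2ap. In Malat1-/- CD4 barcodes 1 barcode held 96.9% of the Hist1h1b UMIs, and in wild-type CD8 barcodes 1 barcode held 94.6%. Without the stand-out barcodes the opposite direction was lost for several of them: Stmn1 had -0.37 in the Malat1-/- and -1.33 in the wild-type library, Pclaf had -1.95 in the Malat1-/- and -1.33 in the wild-type library, and Hist1h2ap had 1.11 in the Malat1-/- and 1.18 in the wild-type library. Hmgb2 then had 0.57 in the Malat1-/- and -0.09 in the wild-type library, Top2a had 0.66 in the Malat1-/- and -1.61 in the wild-type library, and Hist1h1b had 1.11 in the Malat1-/- and -0.96 in the wild-type library. Penk, an opioid peptide precursor, had 6.88 in the Malat1-/- and -2.23 in the wild-type library, which came to 4.97 in the Malat1-/- and -0.31 in the wild-type library without them.

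The metallothionein Mt2 had -2.70 in the Malat1-/- and 1.36 in the wild-type library, and Mt1 had -2.38 in the Malat1-/- and 1.56 in the wild-type library. 1 CD8 barcode held 91.8% of the Mt1 UMIs in the Malat1-/- library, and without the stand-out barcodes the Mt1 ratio was 0.48 in the Malat1-/- and 0.66 in the wild-type library. Of the islet hormone genes, Ppy had -10.59 in the Malat1-/- and 8.89 in the wild-type library, and Pyy had -9.20 in the Malat1-/- and 9.76 in the wild-type library. The granule gene Chga had -2.86 in the Malat1-/- and 4.00 in the wild-type library. 1 CD8 barcode held 99.9% of the Malat1-/- Ppy UMIs and 1 CD4 barcode 99.7% of the wild-type ones.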

How the results depend on the processing

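No paired analysis was possible because each group is 1 library. Alternatives were total-count scaling, a scale without hormone, mitochondrial and Malat1 UMIs, free RNA subtracted, thinning, other limits on level, depth, CD3, mitochondrial share and markers, and, chosen after seeing the data, leaving out members above 15000 UMIs and those with markers of other cells. They moved the median log2 ratio of the genotype comparison between 0.03 and 0.09.

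Thinning each barcode to 1000 UMIs, which leaves fewer UMIs, counted 3 genes higher and 5 lower in Malat1-/- members (35 and 15 in all UMIs), 18 higher and 3 lower in CD4 than CD8 barcodes (55 and 25), and gave Foxp3 shares of 5% in Malat1-/- and 1.59% in wild-type members (15.0% in Malat1-/- and 10.3% in wild-type members without thinning). A minimum of 50 CPM counted 33 genes lower in Malat1-/- members and 83 higher in CD4 barcodes. Thinning and the lower minimum also change which genes are measured. These counts therefore cannot be set against the shares of the main setting. Without members above 15000 UMIs 20 genes were higher in Malat1-/- members, and without those with other markers too, 12. Under these last 2 settings the log2 genotype ratio was reversed for Ebi3 (-0.31 and -0.44), Ppy (0.23 and 0.25), Pyy (0.90 and 0.98) and Krt8 (1.15 and 1.03). All 12 alternative values for the number and share of members stayed within their intervals. Depth limits genes of few UMIs, and 1 library per genotype limits every genotype difference.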

Other observations

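Variable segments of the T cell receptor were seen in a minority of members. A beta chain segment (Trbv) had a UMI in 12 of 60 Malat1-/- members, over 7 segments, and in 36 of 126 wild-type members, over 15 segments. Trbv2 was the segment in 5 of those 12 Malat1-/- and 9 of those 36 wild-type members, and Trbv12-2 in 8 of the 36 wild-type members. An alpha chain segment (Trav) had a UMI in 3 Malat1-/- and 30 wild-type members.

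Il10, an inhibitory cytokine, had a UMI in 7 of 60 Malat1-/- members (11.7%, 4.82 to 22.6%) and 4 of 126 wild-type members (3.17%, 0.872 to 7.93%). Of the members with Il10, 1 of the Malat1-/- and 0 of the wild-type ones had a Foxp3 UMI. B barcodes had Il10 in 9.70% of the Malat1-/- and 9.52% of the wild-type library.

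Among T barcodes with neither co-receptor, the gamma-delta receptor constant region Trdc had a UMI in 12 of 82 Malat1-/- and 5 of 105 wild-type barcodes, and Foxp3 in 6 Malat1-/- and 25 wild-type barcodes.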
